A study of Mus musculus with 4 samples.

Results

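The KI-only narrow peaks on B6 broad enrichment are refined H3K36me3 peaks of KI germ cells that lay on a broad H3K36me3 region of B6, by 1 bp or more, and overlapped no refined peak of B6. There were 36680 such peaks on the autosomes, of 68189 autosomal refined peaks of KI (53.8%) and of 131194 refined peaks of both strains on all chromosomes. They were chosen by measured values, that is by the positions of the called regions of both strains, so their number, their widths and their place against B6 regions are a description and carry no test. B6 is the inbred strain C57BL/6J, with its own Prdm9 allele. KI (B6.Cg-Prdm9<tm1.1Kpgn>/Kpgn) carries, on the B6 background, the last exon of Prdm9 from the CAST/EiJ strain, the exon that encodes the zinc finger array. The cells were germ cells labelled as spermatocytes from mice of 14 dpp, while the labels give 15 dpp for the inputs, and the antibody field of the ChIP samples reads H3K36me6. Each strain had 1 list of broad regions and 1 of refined peaks, called on the merged reads of its biological replicates, so no value has a replicate error, and an interval on a share (Wilson, 95%) covers the number of peaks only. The lists hold positions on mm9 without height or read count, so the depth behind a peak is unknown.

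PRDM9 binds DNA through its zinc fingers during meiotic prophase and trimethylates lysines 4 and 36 of histone H3 on the nucleosomes next to its binding site, which marks sites of recombination. H3K36me3 is also laid down by SETD2, which travels with elongating RNA polymerase, so the mark covers the bodies of transcribed genes, often to their 3′ ends. A narrow peak on such a background is therefore read against an already enriched region. The zinc fingers of the CAST/EiJ allele and of the B6 allele recognise different DNA sequences, and the DNA of the peaks is a measure that the rule of overlap did not use.

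The sequences that bear on that comparison were 10-mers that distinguished the peaks of one strain from those of the other where no background was shared. They were taken from odd-numbered autosomes, between KI peaks without any B6 region and B6 peaks without any KI region, and were then counted on even-numbered autosomes in the 400 bp at the midpoint of each peak, on either strand. None of the KI-only peaks on B6 broad regions took part in the choice. Those of the KI list found most often in them are shown here because they carry the sequence result, and several are shifted copies of each other or of each other's reverse complement.
KI-list 10-mer, rank 16: AAAGGTCACA
KI-list 10-mer, rank 12: CACATTCCCA
KI-list 10-mer, rank 6: AATGTGACCT
KI-list 10-mer, rank 1: GAATGTGACC
KI-list 10-mer, rank 3: GGAATGTGAC
The first of these, AAAGGTCACA, was in 74 of 17034 KI-only peaks on B6 broad regions and in 23 of 9441 B6-only peaks on KI broad regions. The second, CACATTCCCA, was in 53 and 20 of them. Each 10-mer alone was thus rare, and the comparison was made over the 20 together.

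The stretches of 200 bp that follow surround listed 10-mers of the KI list, in capitals, at KI-only peaks inside Exoc4, which encodes a subunit of the exocyst, and Zbtb20, which encodes a zinc finger repressor. Both were among the 10 genes with the most such peaks. These genes were chosen after the values were seen, because none of the 51 peaks of even-numbered autosomes in the fixed lists of meiotic, methyltransferase and germ line genes held a listed 10-mer. The stretches are mm9 sequence of the plus strand, which is the coding strand of both genes. The coordinates in each label are those of the printed stretch and not of the peak, while exon or intron describes the peak.
Exoc4 intron peak, chr6:33273695-33273894: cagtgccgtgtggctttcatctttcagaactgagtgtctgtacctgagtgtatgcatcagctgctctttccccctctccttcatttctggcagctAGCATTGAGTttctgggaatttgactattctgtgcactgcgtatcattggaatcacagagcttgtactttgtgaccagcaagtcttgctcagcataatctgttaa
Exoc4 exon peak, chr6:33297542-33297741: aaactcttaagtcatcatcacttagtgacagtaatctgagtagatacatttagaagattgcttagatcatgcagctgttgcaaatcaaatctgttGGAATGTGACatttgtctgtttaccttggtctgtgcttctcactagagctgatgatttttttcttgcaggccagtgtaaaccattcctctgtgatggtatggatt
Exoc4 intron peak, chr6:33343803-33344002: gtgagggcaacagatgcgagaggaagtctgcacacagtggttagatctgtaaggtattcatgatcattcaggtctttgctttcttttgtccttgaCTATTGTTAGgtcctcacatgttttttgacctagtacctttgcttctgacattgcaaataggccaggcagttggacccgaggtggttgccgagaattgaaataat
Zbtb20 intron peak, chr16:43154725-43154924: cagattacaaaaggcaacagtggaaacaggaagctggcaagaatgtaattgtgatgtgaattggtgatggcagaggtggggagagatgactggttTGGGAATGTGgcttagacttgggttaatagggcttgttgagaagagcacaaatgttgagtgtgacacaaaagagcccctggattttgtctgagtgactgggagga
Zbtb20 intron peak, chr16:43224852-43225051: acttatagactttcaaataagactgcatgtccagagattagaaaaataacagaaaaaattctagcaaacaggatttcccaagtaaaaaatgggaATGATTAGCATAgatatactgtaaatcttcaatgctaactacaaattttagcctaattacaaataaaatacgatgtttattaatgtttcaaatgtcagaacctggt
Zbtb20 intron peak, chr16:43413757-43413956: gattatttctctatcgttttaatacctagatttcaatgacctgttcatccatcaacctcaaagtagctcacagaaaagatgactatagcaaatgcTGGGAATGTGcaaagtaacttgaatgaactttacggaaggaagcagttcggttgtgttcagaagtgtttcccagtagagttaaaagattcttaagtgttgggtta
Zbtb20 intron peak, chr16:43616026-43616225: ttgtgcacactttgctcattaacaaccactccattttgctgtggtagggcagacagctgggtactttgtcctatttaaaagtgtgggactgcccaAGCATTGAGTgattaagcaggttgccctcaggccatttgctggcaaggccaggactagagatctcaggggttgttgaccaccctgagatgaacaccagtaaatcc
In the second Zbtb20 peak the 3 listed 10-mers overlap each other and read as 1 run of capitals. Measured from the midpoint of their peak, the listed 10-mers began at positions from -197 to 140 bp. All were inside the 400 bp window, but some were outside the called peak. The exon peak of Exoc4 was chr6:33297690-33297919, and its 10-mer began at 33297637. The Zbtb20 peaks chr16:43413636-43413788 and chr16:43616197-43616440 had theirs at 43413852 and 43616121, also outside. The remaining printed 10-mers lay within their called peaks. The 3 peaks in Exoc4 lay in 1 B6 broad region of 113.5 kb, and the nearest B6 refined peaks were 32234, 32026 and 13400 bp away. The 4 peaks in Zbtb20 lay in B6 regions of 5 to 28.5 kb, with B6 refined peaks at distances from 2048 to 3607 bp.

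KI-only peaks on B6 broad regions held KI-list 10-mers more often than their counterparts in B6, and B6-list 10-mers less often. On even-numbered autosomes, 343 of 17034 had a 10-mer of the KI list, a share of 2.01% (1.81% to 2.24%). Their counterparts, the B6-only refined peaks on a KI broad region, numbered 21143 of 54236 autosomal B6 refined peaks (39.0%), and 1.47% of the 9441 on even-numbered autosomes had one (1.25% to 1.74%). The difference was 0.54 percentage points (Newcombe 95% interval 0.21 to 0.86) and the ratio was 1.37 (1.12 to 1.66), larger than the counting error, which is the only error these lists allow. With 8-mers in place of 10-mers the ratio was 1.05 (0.991 to 1.10), within the counting error of 1. For the B6 list the order was the other way, with 1.53% of KI-only peaks on B6 broad regions and 2.33% of the B6-only peaks on KI broad regions, a difference of -0.80 points (-1.17 to -0.45). Of the 20 10-mers of the KI list, 15 had a higher share in the KI-only peaks than in their B6 counterparts, and of the 20 of the B6 list, 14 had a higher share in the B6-only peaks.

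The share was well under that of KI peaks outside B6 enrichment. The KI list was chosen for its frequency in that class, on odd-numbered autosomes, so a higher share there follows in part from the choice. KI-only peaks without any B6 region had a KI-list 10-mer in 5.20% of 10287 cases, so that the difference of the peaks on B6 broad regions from them was -3.19 points (-3.68 to -2.72). KI peaks shared with a B6 refined peak had one in 1.35% of 4382, which was 0.67 points (0.23 to 1.04) under the KI-only peaks on B6 broad regions. The B6 list, which was chosen against that first class, gave 1.45% in KI-only peaks without a B6 region. The 1.53% differed from it by less than the counting error (interval of the difference -0.22 to 0.37). Of the listed 10-mers some lay far apart in 1 window: 19.6% of the KI-only peaks without a B6 region that had listed 10-mers had them 40 bp or more apart, against 2.62% of the KI-only peaks on B6 broad regions, and annotated repeats were not examined. A list chosen anew without such peaks, an alternative added after the data were seen, put the shares at 2.83% and 1.85% for the KI-only and B6-only peaks on the other strain's broad regions, with a ratio of 1.53 (1.29 to 1.81).

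**Figure D1:**
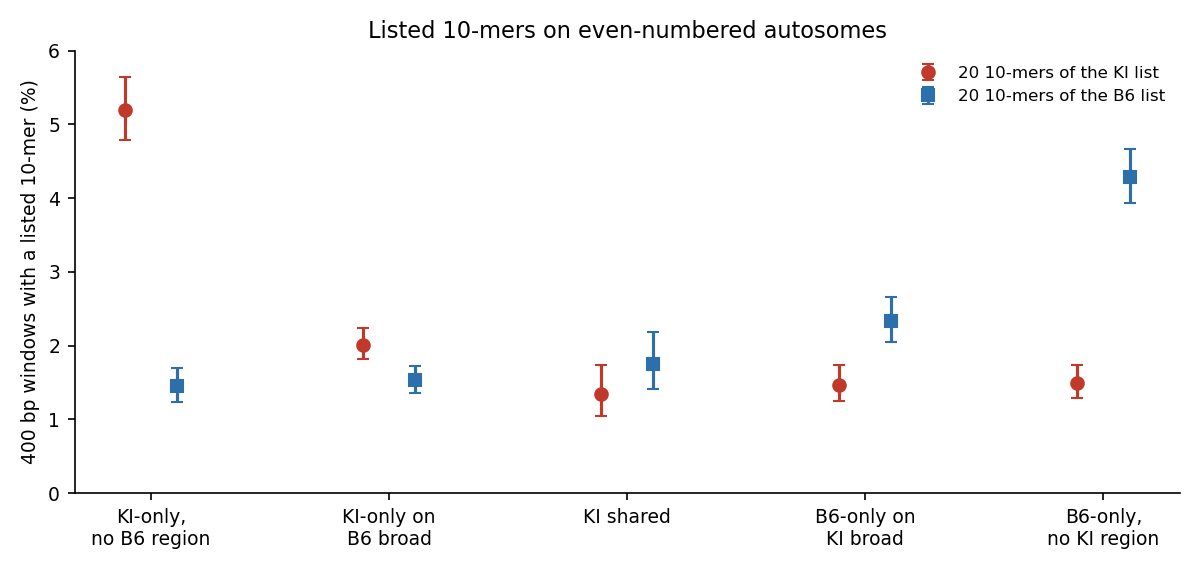
Share of 400 bp windows at refined peaks of even-numbered autosomes with 1 or more 10-mers of the KI list (red circles) or the B6 list (blue squares), in percent, for 5 classes of peak. Bars are Wilson 95% intervals. KI-only peaks on B6 broad regions stand at 2.01% for the KI list, above the 1.47% of B6-only peaks on KI broad regions and below the 5.20% of KI-only peaks with no B6 region. The KI list was chosen in the last of these classes, on odd-numbered autosomes.

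KI-list 10-mers were most frequent at the middle of the peaks. In KI-only peaks on B6 broad regions, KI-list 10-mers numbered 7.50 per 1000 peaks and 100 bp within 200 bp of the midpoint, and 3.94 at 700 to 1000 bp from it, a ratio of 1.90. B6-list 10-mers showed no such rise toward the middle, with 4.51 and 4.75. In the B6-only peaks on KI broad regions the lists exchanged places, with 6.75 near the midpoint and 4.45 farther out for the B6 list, and 4.69 and 5.26 for the KI list. In KI-only peaks without a B6 region, the class in which it was chosen, the KI list gave 46.7 and 5.46. In shared KI peaks it gave 7.42 and 4.41, a ratio of 1.68 and so also with a central rise. Windows of 400 bp placed 2000 bp to either side of the KI-only peaks on B6 broad regions, also added after the data were seen, had a KI-list 10-mer in 1.25% and 1.30% of cases, against 2.01% at the peaks. The ratio to both sides together was 1.58 (1.37 to 1.82), and for the B6 list it was 0.947 (0.819 to 1.10).

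**Figure D2:**
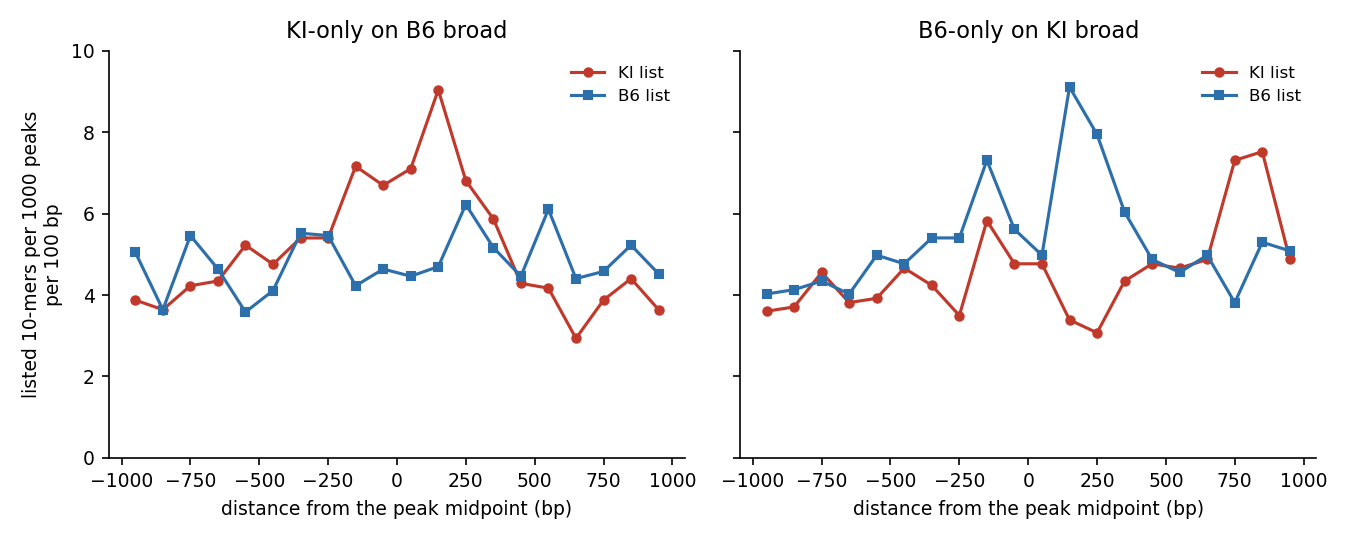
Listed 10-mers per 1000 peaks in bins of 100 bp by distance from the peak midpoint, on even-numbered autosomes, for KI-only peaks on B6 broad regions (left) and B6-only peaks on KI broad regions (right), with the KI list in red and the B6 list in blue. The KI list reaches 9.04 in one central bin on the left against 3.64 in the outermost bin downstream, and the B6 list is the one with the central rise on the right.

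The share with a KI-list 10-mer showed no order by width of the B6 region. It was 2.32% (1.86% to 2.88%) where the B6 region was under 5 kb wide, 1.85% at 5 to 10 kb, 1.74% at 10 to 20 kb, 2.08% at 20 to 50 kb and 2.08% (1.61% to 2.69%) at 50 kb or more, with intervals that overlap. Inside protein-coding genes it was 1.99% of 15302 peaks, and outside them 2.25% of 1732, again with overlapping intervals. Peaks within 500 bp of a B6 refined peak had 1.71% (1.32% to 2.21%), and those more than 10 kb from any had 2.08% (1.62% to 2.66%). By width of the peak's own KI broad region the share did differ, with 1.84% of 9729 peaks under 5 kb (1.59% to 2.13%), 2.15% at 5 to 10 kb, 1.67% at 10 to 20 kb, 2.79% of 1613 at 20 to 50 kb (2.09% to 3.71%) and 3.41% of 469 at 50 kb or more (2.11% to 5.47%). Against the narrowest class the last 2 were higher by 0.95 points (0.20 to 1.91) and 1.57 points (0.24 to 3.64), comparisons made after the data were seen. The B6 list in the same classes was at 1.39%, 1.94%, 1.35%, 1.55% and 2.35%, so it too was highest in the widest class. There, 16 of the 469 peaks had a KI-list 10-mer and 11 a B6-list 10-mer, so the higher share was not particular to the KI list.

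The peaks were narrow, and most lay wholly inside a B6 broad region, which the rule required them to overlap. Their median width was 320 bp (quartiles 257 to 466 bp, range 99 to 3742 bp), against 298 bp in KI-only peaks without a B6 region and 372 bp in shared KI peaks. A share of 95.3% lay inside 1 B6 broad region over their whole length, against 90.3% of B6-only peaks on KI broad regions inside 1 KI region. Midpoints of the KI-only peaks were a median of 2649 bp from the nearer edge of their B6 host, with no placement at random made for comparison. On single autosomes they made up between 50.6% (chromosome 1) and 56.5% (chromosome 13) of the KI refined peaks. Their G+C content in 400 bp was 43.3% ± 6.06 (SD over 36680 peaks), 43.8% ± 7.02 in windows 2000 bp away and 42.6% ± 6.13 in B6-only peaks on KI broad regions.

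The widest of them was a peak of 3742 bp at chr8:35903204-35906945 in an intron of Tnks, which encodes a poly-ADP-ribosyltransferase, in a B6 region of 70 kb and 8243 bp from the nearest B6 refined peak. The others of the widest 5 were in an exon of Fam33a (3438 bp, chr11:86936219-86939656) and in introns of Rbfox2, an RNA-binding splicing regulator (3380 bp, chr15:76997703-77001082), Stx4a, a syntaxin of membrane fusion (3238 bp, chr7:134986002-134989239), and Atp8b5 (3114 bp, chr4:43348887-43352000). Of the Fam33a peak, 3282 bp lay on B6 enrichment and a B6 refined peak was 147 bp away, while the other 4 were wholly on B6 enrichment.

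Close to the limits of the rule lay few peaks. Of the 36680, 25 had 10 bp or fewer on a B6 broad region, among them peaks at chr16:18862888-18863001, chr3:58985000-58985142 (in an intron of Med12l) and chr7:26333656-26334001 with 1 bp each, and at chr16:91896185-91896502 (Atp5o and Itsn1) and chr2:6649999-6650368 (Celf2) with 2 bp each. Just outside were 52 KI-only peaks within 10 bp of a B6 broad region, 10 of them directly adjacent, the first 5 by chromosome name at chr1:89738245-89739000 in Sag, chr10:13559842-13560500 in Aig1, chr14:119071501-119071848 in Abcc4, chr15:99931001-99931313 in Dip2b and chr16:30449501-30449916 outside genes. At the other limit, 209 of the peaks lay 10 bp or less from a B6 refined peak, and 229 shared KI peaks overlapped one by 10 bp or fewer.

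A B6 refined peak, in the same B6 region or not, lay within 1000 bp of 33.2% of the peaks, and by the rule none overlapped one. The gap to the nearest B6 refined peak had a median of 2181 bp (quartiles 658 and 6599 bp), 20.2% had one within 500 bp, and 16.9% had none within 10 kb. B6-only peaks on KI broad regions were closer to KI refined peaks, with a median gap of 875 bp and 34.2% within 500 bp. KI has 1.26 times as many autosomal refined peaks as B6, and how far that sets the gaps was not tested.

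**Figure D3:**
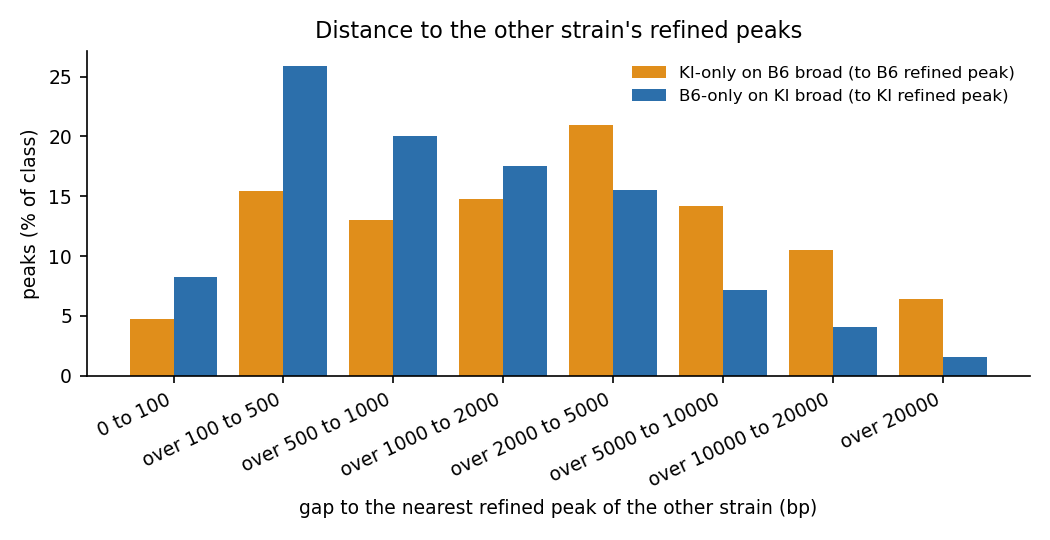
Share of peaks, in percent of their class, by the gap in bp to the nearest refined peak of the other strain, for KI-only peaks on B6 broad regions (orange) and B6-only peaks on KI broad regions (blue). At gaps over 2000 and up to 5000 bp the KI-only peaks have 20.9% and the B6-only peaks 15.5%, while over 100 and up to 500 bp they have 15.5% and 25.9%.

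The broad regions of B6 carried about 1 refined peak of B6 each, whatever their width, while the number of KI-only peaks in them grew with it. Of 50542 autosomal broad regions of B6, 21030 hosted at least 1 KI-only peak, with a mean of 1.74 per host (median 1, at most 20), and 62.8% of the peaks shared their host with another. Regions under 5 kb held a mean of 0.226 KI-only peaks, and 20.6% of them held any. The means were 1.05 at 5 to 10 kb, 1.70 at 10 to 20 kb, 2.30 at 20 to 50 kb and 3.77 at 50 kb or more, where 98.2% of the 1485 regions held at least 1. The B6 refined peaks over the same classes had means of 1.09, 1.15, 1.13, 1.11 and 1.09. Broad regions of KI likewise carried about 1 KI refined peak at each width, with means of 1.10, 1.18, 1.18, 1.19 and 1.16. Per Mb of B6 region, however, the KI-only peaks were most frequent at 5 to 10 kb, with 157 per Mb, and least at 50 kb or more, with 48.6.

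The KI enrichment under the same hosts was divided into more regions. B6 regions of 50 kb or more overlapped a mean of 3.66 KI broad regions, which covered 98.0% of their bases. KI regions of that width overlapped a mean of 1.16 B6 broad regions, covered to 99.8%, and held a mean of 1.02 B6-only peaks. The KI broad region around a KI-only peak was narrower than its B6 host in 80.5% of cases, as wide in 8.71% and wider in 10.8%, with median widths of 4000 bp for the KI region and 13000 bp for the host. In the reverse comparison, the B6 region of a B6-only peak was narrower than its KI host in 29.5% of cases. In all, 81.1% of the autosomal bases broad in B6 were also broad in KI, and 84.6% of those broad in KI were broad in B6.

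How the caller drew the broad regions moved with this pattern. In KI, 29.8% of the autosomal broad regions overlapped another KI broad region, and 30.3% did so in B6. Of the KI-only peaks, 75.9% were the single refined peak of their KI broad region, and 44.1% were so once overlapping regions were joined. With joined regions of B6, the mean number of B6 refined peaks went from 1.09 under 5 kb to 1.90 at 50 kb or more, and that of KI-only peaks from 0.21 to 4.96. The part that the deeper sequencing of KI, reported with the study, has in the larger number of KI regions and peaks was not tested, and with 1 merged list per strain it cannot be told apart from the strain.

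**Figure D4:**
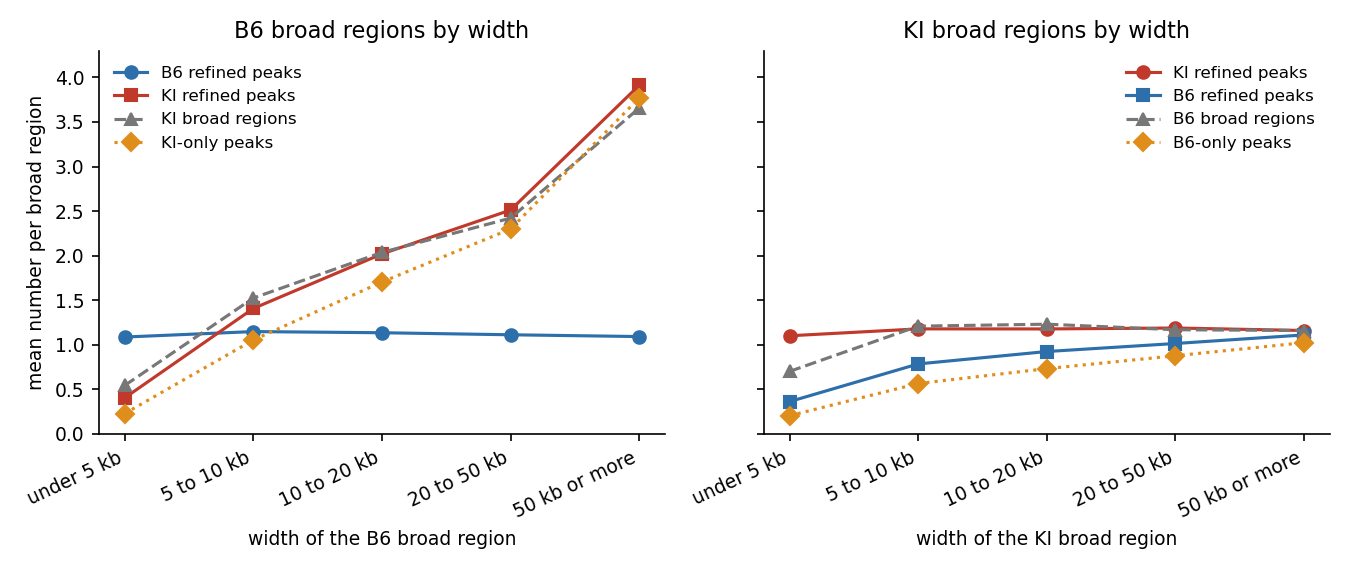
Mean number, per broad region, of refined peaks of both strains, of broad regions of the other strain and of strain-only peaks, by width of the B6 broad region (left) or of the KI broad region (right). On the left the B6 refined peaks stay between 1.09 and 1.15 while KI-only peaks reach 3.77 at 50 kb or more, and on the right B6-only peaks reach 1.02.

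The 5 B6 regions with the most KI-only peaks were between 77.5 and 137 kb wide. The first, chr6:28635001-28736000, which covers part of Snd1 and Lrrc4, held 20 KI-only peaks, 2 B6 refined peaks and 19 KI broad regions. A region of 77.5 kb in Auts2, chr5:132936501-133014000, held 19 KI-only peaks against 1 B6 refined peak. There were 18 in each of the other three, at chr3:84619501-84756500 over Arfip1 and Fbxw7, chr6:33241501-33355000 in Exoc4 and chr12:101839001-101948000 in Rps6ka5, with 1 B6 refined peak each. KI broad regions covered between 92.5% and 96.5% of these 5 hosts, so that the same ground was enriched in both strains.

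A narrower question is where the peak lay when each strain had called 1 region and 1 refined peak on the same ground. There were 10699 such pairs of regions, and the 2 refined peaks overlapped in 3306 of them (30.9%, 30.03% to 31.8%). The share was 37.0% where the B6 region was under 5 kb wide, 31.2% at 5 to 10 kb, 22.2% at 10 to 20 kb, 12.6% at 20 to 50 kb and 6.72% (4.29% to 10.4%) at 50 kb or more. Where the peaks did not overlap, their midpoints were a median of 982 bp apart in the narrowest class and 17090 bp apart in the widest. Thus 6585 of the KI-only peaks lay on such ground, where the refined peaks of both strains did not overlap. A wider region leaves more room for 2 narrow peaks to lie apart, and no placement at random was made to compare with the order by width. With 1 merged list per strain, how often repeated calls on the same strain would differ in this way is unknown.

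KI-only peaks on B6 broad regions were mostly inside genes. A share of 89.0% overlapped a protein-coding gene (88.7% to 89.3%), against 44.1% of KI-only peaks without a B6 region, 82.7% of shared KI peaks and 86.4% of B6-only peaks on KI broad regions. The difference from the last was 2.65 points (2.09 to 3.21). Of the bases of B6 broad regions, 86.4% were in such genes. Among peaks with their midpoint in a gene, 11.2% had it in an exon (10.9% to 11.6%), near the 10.9% of exonic bases in the genic part of B6 broad regions. Coding sequence held 5.06% and untranslated sequence outside it 4.60%. The exon share was 14.8% in B6-only peaks on KI broad regions, a difference of -3.62 points (-4.24 to -3.002), and 14.9% in shared KI peaks.

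Along genes of 20 kb or more the peaks were spread evenly. The 29932 midpoints in 9328 such genes were divided over 10 equal parts from the 5′ end, and each part held between 9.18% and 11.2% of them. B6 enrichment was not even, since it covered 29.9% of the bases of the first part and 43.9% of those of the last. Per Mb of B6 broad sequence there were therefore more KI-only peaks toward the 5′ end, with 104 in each of the first and second parts and 79.8 in the ninth. B6-only peaks per Mb of KI broad sequence were 55.7 in the first part, 47.0 in the sixth and 55.0 in the last.

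**Figure D5:**
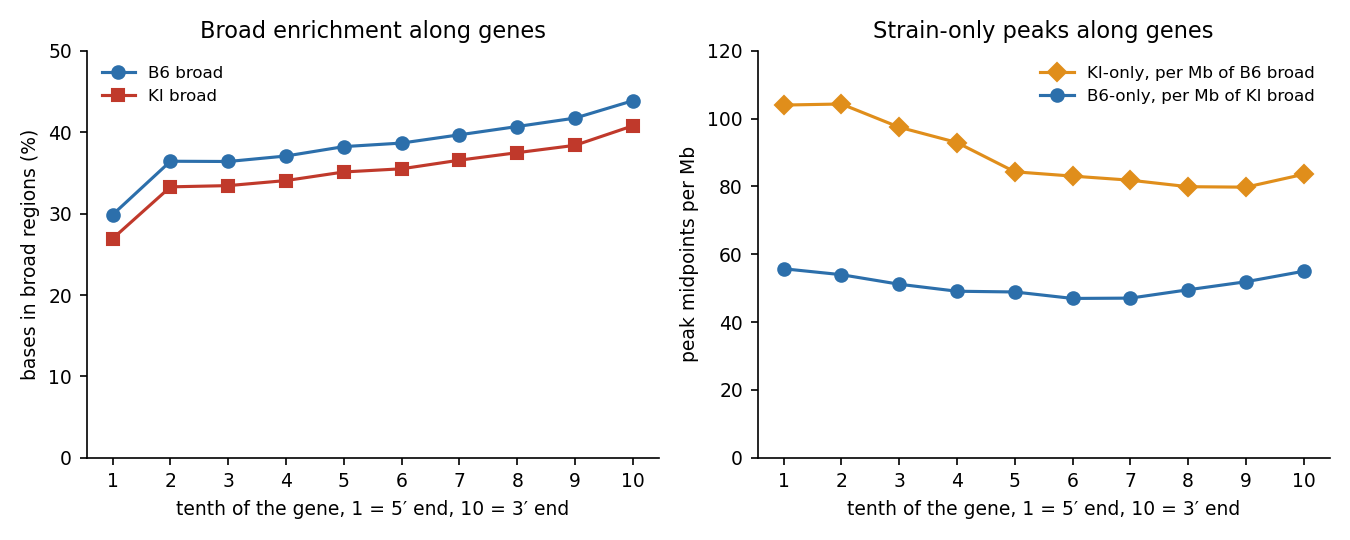
Left, percent of bases in broad regions of B6 (blue) and KI (red) in each of 10 equal parts of protein-coding genes of 20 kb or more, from the 5′ end. Right, midpoints of KI-only peaks per Mb of B6 broad sequence (orange) and of B6-only peaks per Mb of KI broad sequence (blue), where the KI-only peaks go from 104 in the first part to 79.8 in the ninth.

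Of 21418 autosomal protein-coding genes, 8609 held at least 1 KI-only peak on B6 enrichment (40.2%), 4430 held 2 or more and 741 held 10 or more. Genes with KI-only peaks mostly also had the counterpart: 7515 held a B6-only peak on KI enrichment as well, which was 87.3% of the genes with the former and 92.6% of the 8114 genes with the latter. Over all 21418 genes, 37.9% held such a B6-only peak. Both kinds of peak lie where both strains have a broad region, so their presence in the same genes is not independent of the rule. Among genes with 50% or more of their length on broad regions in both strains, the KI-only peaks were at 9.75 per 100 kb of gene in those under 10 kb, 6.77 at 10 to 30 kb, 6.16 at 30 to 100 kb, 9.02 at 100 to 300 kb and 12.6 at 300 kb or more. B6-only peaks in the same genes were at 8.37, 5.29, 3.29, 3.69 and 4.38 per 100 kb.

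The genes with the most KI-only peaks were long, and in most of them B6 was covered more fully than KI. Auts2, linked to neurodevelopment and to Polycomb-type repressor complexes (chr5:131913205-133019214), held 178, beside 42 B6-only peaks and 30 shared ones. Its bases were 87.9% broad in B6, in 115 regions, and 65.2% in KI, in 191. Zbtb20 held 119 KI-only and 30 B6-only peaks, and Exoc4 held 118 and 32. Lrba, a BEACH domain protein of vesicle transport, held 95 and 24, and Gmds, an enzyme of GDP-fucose synthesis, held 93 and 33. Broad coverage in these 4 was 87.2% to 95.7% in B6 and 60.1% to 74.4% in KI. Sdk1, a cell adhesion protein, held 86 KI-only peaks, Large, a glycosyltransferase of dystroglycan, and Rabgap1l, a regulator of Rab proteins, held 76 each. Gm20388 (136) and Fgfr2 (74) complete the 10 as gene models of 4435 and 3009 kb that span other genes, and their broad coverage was near equal in both strains, at 34.4% and 33.6% for the first and 26.4% and 26.0% for the second. Refined peaks of all kinds were more numerous in KI than in B6 in 9 of the 10, the exception being Sdk1 with 146 in KI and 160 in B6, in genes ranked by their KI-only peaks.

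Meiotic genes held such peaks about as often as other genes with the same enrichment, and mostly few apiece. Of 46 genes for meiotic recombination and synapsis found on autosomes, 37 held at least 1 (80.4%), with 101 in all, while 40.2% of all autosomal protein-coding genes did. Of the 46, 44 were broad over 50% or more of their length in both strains, and among all 8602 genes with that coverage the share with KI-only peaks was 78.1%. Mei4, a partner of the break-forming machinery (342 kb), had 19, Mei1 and Ccdc79, the latter a telomere-binding protein of meiosis, had 8 each, and Tex14, of the intercellular bridge, had 6. Sycp1, the transverse filament of the synaptonemal complex, had 5 beside 5 B6-only peaks, and Dmc1, the meiotic recombinase, had 2. In 20 genes there was 1 KI-only peak. Among them, Spo11, which makes the double strand breaks, held 1 beside 2 B6-only peaks, and so did Prdm9. In 18 of the 46 genes each strain had exactly 1 refined peak, and in 13 of these, Brca2, Msh4 and Sycp3 among them, the peaks did not overlap and each lay on the other strain's broad enrichment. The same count was 7 of 8 for methyltransferase and demethylase genes, 7 of 9 for germ line genes, 2 of 2 for postmeiotic spermatid genes and 17 of 40 for cytosolic ribosomal protein genes. This count was not made over all genes. Of the 10699 pairs of regions above, which are another unit, 6585 had a KI-only peak and 30.9% had overlapping peaks. Peaks that did not overlap were thus the more common case there too, and the counts are not read as particular to these genes.

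Genes for H3K36 and H3K4 methyltransferases and demethylases held 117 KI-only peaks in 23 of 26 (88.5%), and 24 of the 26 were broad over 50% or more of their length in both strains, where the share over all such genes was 78.1%. Smyd3, a SET domain methyltransferase (566 kb), had 44 beside 27 B6-only peaks, and Kdm4c, a demethylase of H3K9 and H3K36, and Mll3, a methyltransferase of H3K4, had 15 each beside 3 and 5. Setd2, which lays H3K36me3 on gene bodies, had 2. Of 22 spermatogonial and germ line genes 15 held such peaks (68.2%, against 40.2% over all genes). Most were in Zbtb16, the zinc finger factor of spermatogonial stem cells, with 17 and Kit, the stem cell factor receptor, with 11. Of the 22, 15 were broad to that extent, where the share over all such genes was 78.1%, but these were not the same 15. Zbtb16, Sall4 and Lin28a held peaks without that coverage, and Mael, Nanos3 and Sohlh1 had the coverage and no such peak. In Zbtb16, 69.1% of the gene was broad in B6 and 37.2% in KI.

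The other lists were at or under the share over all genes. Of 24 postmeiotic spermatid genes 6 held KI-only peaks (25%), 27 of the 42 peaks being in Zpbp, a zona pellucida binding protein of the acrosome. None of 1081 olfactory receptor genes did, and the median gene of both lists had no broad region in B6. Of 75 cytosolic ribosomal protein genes, which are short and of which 72 were broad over 50% or more of their length in both strains, 30 held 34 peaks in all (40%). That share lay between the 13.7% of all genes under 10 kb and the 78.1% of all genes with that coverage. Among 19 Sertoli and Leydig cell genes 4 did (21.1%), with 2 each in Wt1 and Gata4 and 1 each in Nr5a1 and Star.

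Against the label of spermatocytes, the 8 germ cell markers fixed for the check (Ddx4, Dazl, Stra8, Sycp1, Sycp3, Hormad1, Spo11 and Dmc1) were broad over most of their length. The least covered was Spo11 in B6 with 82.4% and Stra8 in KI with 77.4%. Of 10 Sertoli and Leydig cell markers, Cyp17a1, Hsd3b1 and Insl3 were at 0 in both strains, Cyp11a1 in B6 alone and Sox9 in KI alone. Coverage, in B6 and then KI, was higher in B6 for Wt1 (71.7% and 8.49%), Sox9 (45.2% and 0), Amh (42.0% and 0.333%) and Gata4 (19.6% and 8.25%), genes of Sertoli cells. It was higher in KI for Fshr (3.24% and 4.50%) and Cyp11a1 (0 and 1.51%), and Star was at 100% in both. The median over the 10 was 11.4% in B6 and 0.92% in KI. The part of somatic cells in B6 enrichment under KI-only peaks was not tested. That 5 of the 36680 peaks lay in these 10 genes does not measure it.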

How the data were processed

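H3K36me3 ChIP-seq of B6 and KI germ cells was processed by the authors, who per the labels and methods aligned reads to mm9 with BWA (1.2.3 in the submitters' processing notes), merged the biological replicates of a strain and called regions with ZINBA against the input. The deposited files hold chromosome, start and end only. A broad region listed more than once was used once. Starts and ends were taken as the first and last base of a region, counted from 1.

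Overlaps were computed in Python 3.11.15 with numpy 2.4.6 and pandas 2.3.3, tested on simulated data, and the number of KI-only peaks on B6 broad regions was the same by bedtools 2.31.1. The host of a peak was the B6 broad region it overlapped most. Genes came from GENCODE M1 and sequence from NCBIM37, both of the mm9 build. Each list took 20 10-mers, without simple repeats, ranked by the lower 95% limit of their log odds. The classes of peak, the gene lists and the alternatives were chosen with earlier results of these data known. Rec114 and Meiob were not found in the annotation. Genes with the most peaks, hosts with the most peaks, the widest peaks and those nearest the limits were named by rules of size. RNA-seq, H3K4me3 and hotspot data were not used here. The inputs have no lists of their own. Differences between shares carry Newcombe intervals and ratios a normal interval on the log scale, with no p-value, since there is 1 merged list per strain.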

Additional observations from a re-analysis of the deposited data

How the results depend on the processing

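The number of KI-only peaks on B6 broad regions stayed within 1.5 times of 36680 under its 5 alternatives, from 29258 without peaks within 500 bp of a B6 refined peak to 39175 on all chromosomes. The share in protein-coding genes was 88.6% by midpoint, 90.3% with genes of any type and 90.4% without peaks within 500 bp of a B6 refined peak. The exon share was 9.57% with protein-coding transcripts only and 19.1% by overlap of 1 bp. The share of peaks alone in their KI broad region was 44.1% with regions joined. The share with a KI-list 10-mer was 4.46% in windows of 1000 bp, 4.41% with 50 10-mers, 18.7% with 8-mers and 2.83% with the list chosen anew, and the other 5 alternatives lay inside the interval of the main value. The ratio to B6-only peaks on KI broad regions was 1.05 with 8-mers (0.991 to 1.10) and 1.69 in hosts under 10 kb. It was over 1 under all 9 alternatives, at its lowest otherwise with lists chosen on even and counted on odd autosomes, 1.201 (1.01 to 1.43). No paired analysis was possible because the peaks were called on merged replicates, and for the same reason no replicate could be left out. All intervals cover counting error only, neighbouring peaks in 1 region are not independent, and the depth behind single peaks is unknown.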
